A study of Mus musculus with 8 samples.

Results

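The stretch described here lies on mouse chromosome 7 from 66100001 to 66383531 (build mm9), between the Atp10a side of the tiled locus and the 100 kb next to Ube3a, and is called the flank. Its members are all probes of a custom Agilent array whose lower coordinate falls in this span, taken separately for each strand: 3880 per strand, 7760 of the 53834 distinct probes on the array. The rule used position alone and no measured value. Each plus-strand probe has a minus-strand partner at the same coordinates, so the strands were read at identical sites. The probes are 45 to 60 bases long and neighbouring starts lie at most 110 bp apart.

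The samples are cerebral cortex RNA of newborn (postnatal day 0) C57BL/6 mice, hybridised to 8 arrays as Cy5-labelled first-strand cDNA, so that the probes of each strand read the RNA of that strand. Of the 6 total RNA samples, 1 came from a mouse with the Snrpn-Ube3a deletion on the maternal chromosome (del s-u/+), 1 from a mouse with it on the paternal chromosome (del +/s-u), and 2 from wild types, described in the design text as littermates of these mutants. Another 2 came from mice that carry the maternal deletion together with a deletion of the Snrpn promoter on the paternal chromosome, called double deletions here. PolyA RNA purified from both wild types gave the remaining 2 samples, and per the labels E. coli rRNA was added to the polyA RNA for labelling. The promoter deletions of the double deletions are designated 0.9 and 4.8, and the sample title and genotype label name opposite ones for each sample, so no value is assigned to either. The single deletions have no replicate, neither promoter deletion has one, and the labels do not say how many animals went into a sample. P-values therefore measure only the spread between these samples. In the genotype comparisons part of it lies between the double deletions, which carry different promoter deletions, and the rest may be technical. Replicates 1 and 2 of the double deletions below are thus not of the same genotype. In bulk cortex RNA, fewer cells of a type and less RNA per cell cannot be told apart.

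Ube3a encodes an E3 ubiquitin ligase that neurons express mainly from the maternal chromosome. On the paternal chromosome a long non-coding RNA that starts at Snrpn runs antisense through Ube3a on the minus strand and is known as Ube3a-ATS. Atp10a, a phospholipid-transporting ATPase gene, is the next protein-coding gene beyond Ube3a, and both genes lie on the plus strand. In the order of the RefSeq annotation (GRCm38.p6) the entries between Atp10a and Ube3a are 5 pseudogenes, Gm6226, Gm18453, Gm9373, Gm9375 and Gm9377. Their positions could not be placed on mm9, so none is assigned to a probe, and exons, introns or UTRs were not annotated here. Minus-strand signal in the flank lies beyond Ube3a in the direction in which Ube3a-ATS is transcribed. No probe sequence was printed, because no source used here gives one.

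The level of a probe is given as log2 red intensity after background correction, relative to the 75th percentile of the 3338 probes of that array that lie outside the locus, so a level of 0 equals that percentile. Median red intensity over all probes was 98 to 161 with total RNA (local background 36 to 38) and 44 to 45 with polyA RNA (background 34). The array carries no gene names, so neither cortex nor cell type markers could be checked. As a check of the labels, the minus strand 200 to 300 kb past the Ube3a-side end of the flank had levels of 4.38 and 4.25 in the wild types and 4.14 in the maternal deletion. The library labelled paternal deletion had 0.51 there, and the double deletions had 1.58 and 3.21.

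In wild-type cortex the probes of the flank gave signal on both strands, at nearly equal mean levels. Whether a probe's sequence also occurs elsewhere in the genome could not be checked without probe sequences and an mm9 genome, so a level is that of all RNA that binds the probe. Means over the tested probes were 1.98 and 1.96 on the plus strand of the 2 wild types, and 2.00 and 1.96 on the minus strand. A probe was tested when all arrays of some group had it well above background, which held for 3265 plus-strand and 3196 minus-strand probes of 3880 each. The outer flank, the tiled stretch beyond it on the Atp10a side, stood lower, at 0.45 and 0.41 (plus strand) and 0.47 and 0.44 (minus strand). The flank was 1.53 and 1.55 above it on the plus strand, and 1.53 and 1.52 on the minus strand.

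The signal was patchy. Of 29 bins of 10 kb per strand (the last one cut at the end of the flank), 9 plus-strand and 7 minus-strand bins had a wild-type mean above 3, while 6 and 9 were below 1. The highest was the last bin before the Ube3a-side end, 66380001 to 66383531, with minus-strand levels of 7.41 and 7.31 in the wild types and plus-strand levels of 4.88 and 4.86. The next on the minus strand were 66230001 to 66240000 (mean of the wild types 6.01) and 66310001 to 66320000 (4.72). On the plus strand, 66160001 to 66170000 led with 5.41 and 5.34, followed by the last bin and by 66230001 to 66240000 (mean 4.71). The lowest were the same 3 bins on both strands: 66120001 to 66130000 (0.09 plus, 0.31 minus), 66110001 to 66120000 (0.15 and 0.52) and 66260001 to 66270000 (0.31 and 0.36). The wild types differed by at most 0.15 (plus) and 0.11 (minus strand) in any flank bin, far less than the bins differ among themselves.

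**Figure D1:**
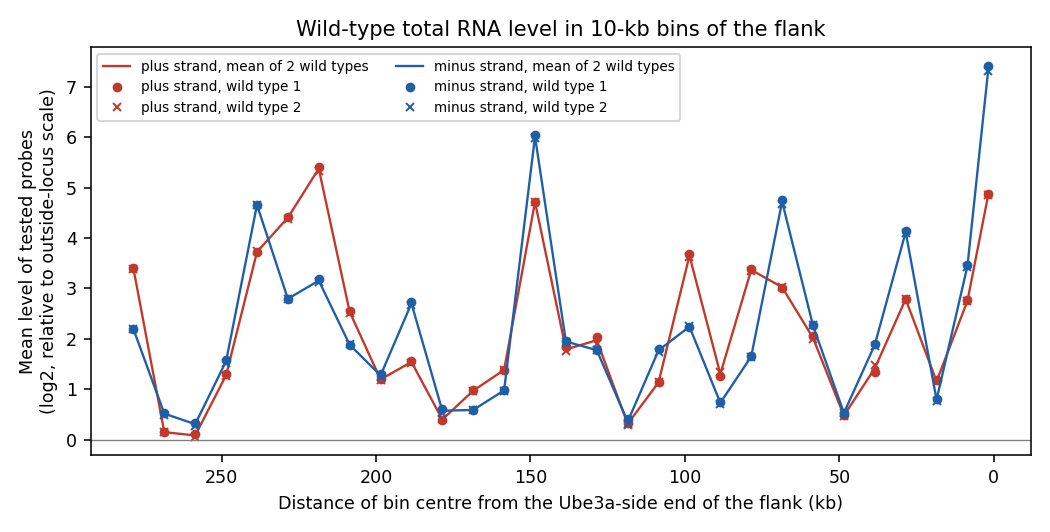
Wild-type total RNA levels of the 29 bins of each strand of the flank (y axis, log2 relative to the outside-locus scale) against distance from its Ube3a-side end (x axis, kb); points are the 2 wild types, lines their mean. Bright and dim bins alternate along the flank on both strands, and the highest, at 7.36 on the minus strand, lies at the Ube3a-side end.

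The probes of the flank are of 2 kinds, and the level split between them. Of the 3880 sites, 1302 carry catalogue probes of the manufacturer and 2578 carry probes made for this array. On the first wild-type array the median level of catalogue probes was -1.15 on each strand, close to the median of -1.05 of the probes outside the locus, which are all catalogue probes. Custom probes had medians of 1.77 (plus strand) and 1.46 (minus strand), and their 90th percentiles were 7.70 and 7.86. On the second wild-type array the medians were -1.13 and -1.11 for catalogue probes and 1.74 and 1.34 for custom probes.

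Custom probes close to a catalogue probe were dim as well. The 214 custom probes per strand that overlap a catalogue probe by at least 50 bases had median levels of -1.16 (plus strand) and -1.21 (minus strand), against -1.18 and -1.22 for their catalogue partners. The 1643 per strand that overlap none had medians of 4.63 and 4.34. With distance from the nearest catalogue probe the median went from -0.97 (within 60 bp) to 4.64 (221 to 500 bp) and 5.26 (2001 bp and more) on the plus strand, and from -0.92 to 4.56 and 6.83 on the minus strand. Beyond 500 bp the rise was not steady. The plus strand had 5.52 (504 to 1000 bp) and 6.27 (1002 to 1997 bp) before 5.26, and the minus strand 5.18 and 4.91 before 6.83. Level in the flank therefore moves with the placement of catalogue probes along the sequence, and the part of that placement in the patchy pattern was not tested.

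**Figure D2:**
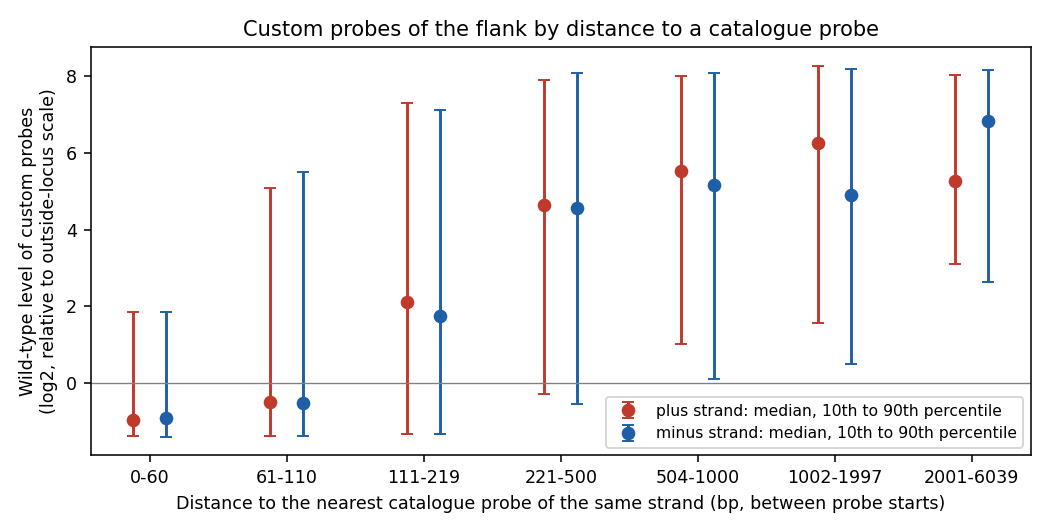
Wild-type levels of custom probes of the flank (y axis, log2 relative to the outside-locus scale) by distance between their start and that of the nearest catalogue probe of the same strand (x axis, bp); points are medians over probes and bars run from the 10th to the 90th percentile. Probes within 60 bp lie near -0.9 on both strands, and those 221 bp or more away have medians above 4.5.

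The brightest members reached the limit of the scanner. In all, 154 flank probes were saturated on at least 1 array, 74 plus-strand and 80 minus-strand probes, and 0 of them are catalogue probes. The 5 with the highest wild-type means on each strand were all custom probes, saturated at a red intensity of 65508 on both wild-type arrays, so their levels are lower bounds and have no order. On the plus strand they start at 66149085, 66334325, 66103105, 66103985 and 66284165, and on the minus strand at 66322225, 66353465, 66279655, 66145015 and 66352915. They are spread over the flank, not gathered in 1 bin. In polyA RNA the plus-strand probe at 66149085 was again saturated on 1 array (65508 and 58716). The other 9 were below the limit on both polyA arrays, for example 21364.5 and 16273 at 66334325 of the plus strand and 13568 and 11093.5 at 66322225 of the minus strand.

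The genotype comparisons ask whether RNA from the flank depends on the deletions or on the paternal antisense transcript. They share the wild types as controls, or the maternal deletion in 1 case. Mean levels of the flank hardly moved. On the plus strand they were 1.91 in the maternal deletion, 1.99 in the paternal deletion and 1.96 and 2.04 in the double deletions, beside 1.98 and 1.96 in wild type. On the minus strand they were 1.93, 1.99, and 1.95 and 2.04, beside 2.00 and 1.96. The double deletions spread more widely than the wild types, and their 2 values enclose those of both wild types on each strand.

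No change of a flank mean passed the test (limma over 32 regions, Benjamini-Hochberg adjusted p under 0.05). The maternal deletion differed from wild type by -0.06 on the plus strand (SE 0.07, 95% interval -0.29 to 0.18) and -0.04 on the minus strand (SE 0.08, interval -0.29 to 0.21), both with adjusted p = 0.930. The paternal deletion differed by 0.02 on both strands (intervals -0.21 to 0.25 and -0.23 to 0.27, adjusted p = 0.969). The double deletions differed by 0.03 on the plus strand (interval -0.16 to 0.22, adjusted p = 0.725) and 0.02 on the minus strand (interval -0.18 to 0.22, adjusted p = 0.804). Against the maternal deletion, which they also carry, the double deletions differed by 0.09 and 0.06 (intervals -0.15 to 0.32 and -0.19 to 0.31, adjusted p = 0.700 and 0.849). Over all 32 regions of the locus, the share called was 21.9% in the maternal deletion, 0% in the paternal deletion, 25% in the double deletion and 0% in the double against the maternal deletion. The uncalled regions of the paternal deletion include the minus strand 200 to 300 kb past the flank, at 0.51 against 4.38 and 4.25 in wild type. A share of 0% therefore does not show that nothing changed. On the scale of the 75th percentile of all probes, which holds the locus itself and shifts the median probe by 1.25 in the paternal deletion, the flank means of that sample were 1.27 higher on both strands and were called.

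**Figure D3:**
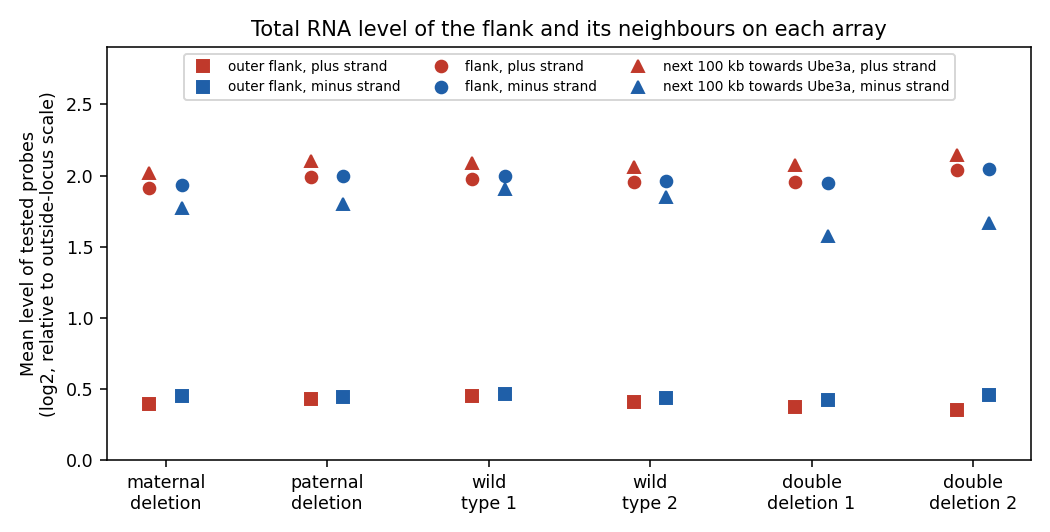
Mean levels of tested probes (y axis, log2 relative to the outside-locus scale) on each total RNA array (x axis) for the flank, the outer flank and the next 100 kb towards Ube3a, by strand; each point is 1 array. Flank means lie between 1.91 and 2.04 on all 6 arrays, while the minus strand of the next 100 kb is lower in both double deletions (1.58 and 1.67) than in the other 4.

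The flank was also tested in smaller pieces. Of the 58 bins, 0 were called in each of the 4 genotype comparisons, and 0 had an unadjusted p under 0.05 (limma). On other scales flank bins were called as higher: 58 of 58 in the paternal deletion on the all-probe scale, and 9 there and 4 in the double deletion with quantile normalization. Over the whole locus 0%, 0%, 18.4% and 0% of 358 bins were called in the maternal, paternal and double deletion against wild type and in the double against the maternal deletion. Flank bins ranged from -0.21 to 0.04 in the maternal deletion and from -0.08 to 0.13 in the paternal deletion. In the double deletion they ranged from -0.09 to 0.31, the largest being the plus strand of the last bin, with 4.98 and 5.37 in the double deletions against 4.88 and 4.86 in wild type (adjusted p = 0.359).

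Part of that range came from double-deletion replicate 2 alone. When replicate 1 was left out, 11 of the 58 flank bins were called against wild type, all higher, by 0.20 to 0.51, beside 41.3% of all bins. When replicate 2 was left out, 0 of 58 were called, beside 53.4% of all bins. With the double deletions as separate groups, 8 flank bins (13.8%) were called higher against wild type, beside 46.9% of all bins, and 6 (10.3%) against the maternal deletion, beside 26.8%. Among single probes of the flank, 28 of 6461 were called in the double deletion (11 higher, 17 lower), 0.433% against 8.85% of all 49384 probes tested. The other 3 genotype comparisons called 0 flank probes, with 0% called over all probes (limma; 195 flank probes in the maternal deletion, 93 in the paternal deletion and 525 in the double against the maternal deletion had an unadjusted p under 0.05). The 28 became 0 when either wild type was left out, as did the calls over all probes. They became 768 (11.8% of flank probes, beside 30.5% of all) and 511 (7.74%, beside 37.5%) when double-deletion replicate 1 or 2 was left out.

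Within each array the flank was also set against its neighbours, and on the Ube3a side this difference changed in the double deletions. On the minus strand, the next 100 kb towards Ube3a was below the flank by 0.09 and 0.11 in the wild types, 0.16 in the maternal deletion and 0.19 in the paternal deletion, and by 0.37 and 0.38 in the double deletions. The difference (next 100 kb minus flank) fell by 0.28 from wild type to double deletion (SE 0.02, limma adjusted p = 0.0394), and both double deletions lay below all 4 other arrays. Of 30 such differences between neighbouring regions, 23.3% were called in this comparison. Without either wild type the change was -0.26 and -0.28 (adjusted p = 0.289 and 0.320), and with custom probes alone -0.23 (0.0501). For the other comparisons 0% (maternal deletion), 3.33% (paternal deletion) and 0% (double against maternal deletion) were called, and this difference was not among them, with changes of -0.06, -0.09 and -0.21 (adjusted p = 0.472, 0.132 and 0.113). With the double deletions as separate groups, the change was called in the paternal deletion (-0.09) and in the double against the maternal deletion (-0.21). The latter was also called without double-deletion replicate 1 (-0.22) or 2 (-0.21). In these fits the residual spread comes from the 2 wild types alone, so the calls add no independent support. The change in the double against the maternal deletion was also called in a fit of all 8 samples (limma adjusted p = 0.0277) and in the authors' matrix (-0.36, 0.0431). The plus strand gave a change of 0.01 in the double deletion (SE 0.02, adjusted p = 0.890). Towards the outer flank, the difference (flank minus outer flank) changed by 0.09 (plus strand) and 0.03 (minus strand) in the double deletion (adjusted p = 0.303 and 0.572). The plus-strand change was called without double-deletion replicate 1 (0.15) and with separate groups (0.09), where again only the wild types give the spread.

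Within the next 100 kb the double deletions were near wild type in the first bin beside the flank and lower in the bins named further on. The first minus-strand bin past the flank, 66383532 to 66390000, had 4.78 and 4.74 in the wild types and 4.72 and 4.91 in the double deletions. The bin 66450001 to 66460000 had 1.34 and 1.29 in the wild types against 0.80 and 0.88 (change -0.47, adjusted p = 0.0270), and 66470001 to 66480000 had 1.70 and 1.68 against 0.91 and 1.09 (change -0.69, adjusted p = 0.0270). The last bin examined starts at 66480001 and lies mostly beyond these 100 kb, because bins were not cut at their end. It had 1.25 and 1.27 against 0.31 and 0.50 (change -0.86, adjusted p = 0.0204). The paternal deletion had 0.76 there, a difference of -0.50 that did not pass the test (adjusted p = 0.108). These bins were chosen after their values were seen.

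**Figure D4:**
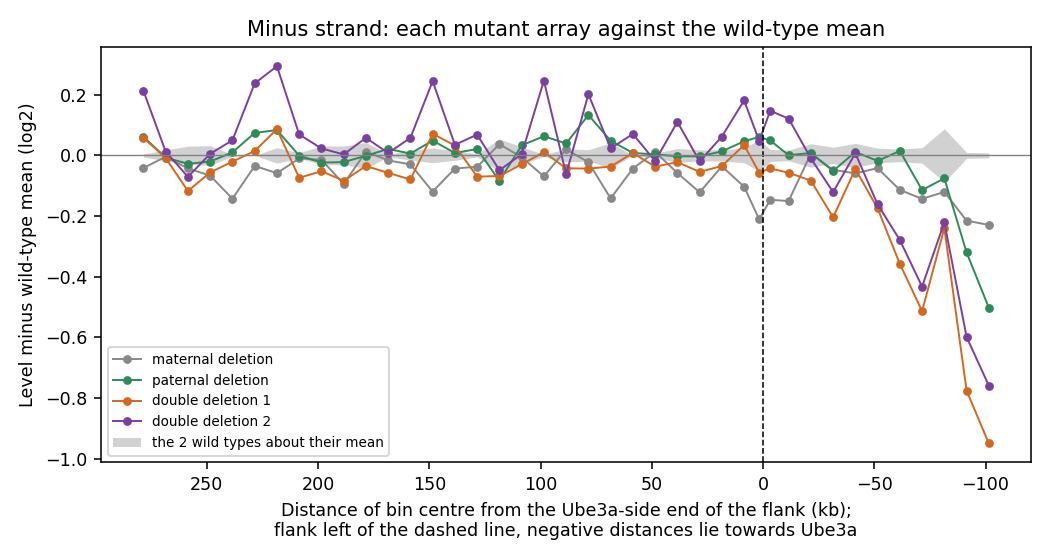
Minus-strand level of each mutant total RNA array minus the wild-type mean (y axis, log2) in 10-kb bins of the flank and the next 100 kb (x axis, kb from the Ube3a-side end of the flank, dashed line); the grey band shows the 2 wild types about their mean. Within the flank most points lie near 0, with peaks in double-deletion replicate 2. In the last bin, towards Ube3a, both double deletions lie lower, by -0.86 on average. Most of this bin lies beyond the next 100 kb.

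Although the strands had nearly equal means, single bins differed between the strands. The probes of a pair have complementary sequences, so the difference sets different probes against each other, and the part of the probes themselves in a constant difference was not tested. The difference of minus over plus strand, taken within each array, was positive in all 6 total RNA arrays in 17 of 29 bins, negative in all 6 in 11, and mixed in 1. It exceeded 1 in size on all 6 arrays in 10 bins, 5 in each direction. In wild type it ran from -2.22 at 66160001 to 66170000 to 2.49 in the last bin. Over the whole flank it was 0.020 and 0.0012 in the wild types, 0.023 in the maternal deletion, 0.0081 in the paternal deletion, and -0.0049 and 0.0065 in the double deletions. Genotype called 0 of the 29 bin differences in any comparison (limma; 0 with an unadjusted p under 0.05), beside 0%, 0%, 0.559% and 0% of all 179. Leaving out double-deletion replicate 1 called 7 against wild type, beside 69.3% of all 179, and 1 against the maternal deletion, beside 52.5%.

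The polyA samples ask which RNA of the flank is polyadenylated. The strand differences were smaller in polyA than in total RNA of the same wild types. The median size over the 29 bins was 0.70 in total and 0.23 in polyA RNA, and the difference shrank in 23 bins in both pairs. In the last bin it went from 2.54 and 2.45 in total RNA to 0.40 and 0.95 in polyA RNA (change -1.81, SE 0.20, adjusted p = 0.00172). At 66160001 to 66170000 it went from -2.52 and -2.50 to -0.37 and -0.88 (change 1.89, SE 0.19, adjusted p = 0.00124), and at 66230001 to 66240000 from 1.28 and 1.23 to -0.02 and 0.31 (change -1.12, SE 0.13, adjusted p = 0.00176). The total and polyA values do not overlap in these 3 bins, but this does not set them apart. They do not overlap in uncalled bins either, such as 66330001 to 66340000 (0.08 and 0.08 against 0.20 and 0.18).

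In all, 26 of 29 flank bins were called for the strand difference, 23 of them as smaller in polyA RNA, beside 83.2% of all 179 bins of the locus, so the share in the flank is close to that of the locus. The size of the difference was smaller in polyA RNA in 82.8% of flank bins and in 75.4% of all bins. Of the alternatives tried, the authors' matrix called 11 flank bins and catalogue probes alone called 14. The strand difference of the flank as a whole changed by -0.0034 (SE 0.02, adjusted p = 0.887). The polyA arrays were also dimmer: the 90th percentile of red intensity over plus-strand flank probes was 2542 and 2022, against 23418 and 21421 with total RNA of the same mice, and the part of signal strength in the smaller differences was not tested.

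**Figure D5:**
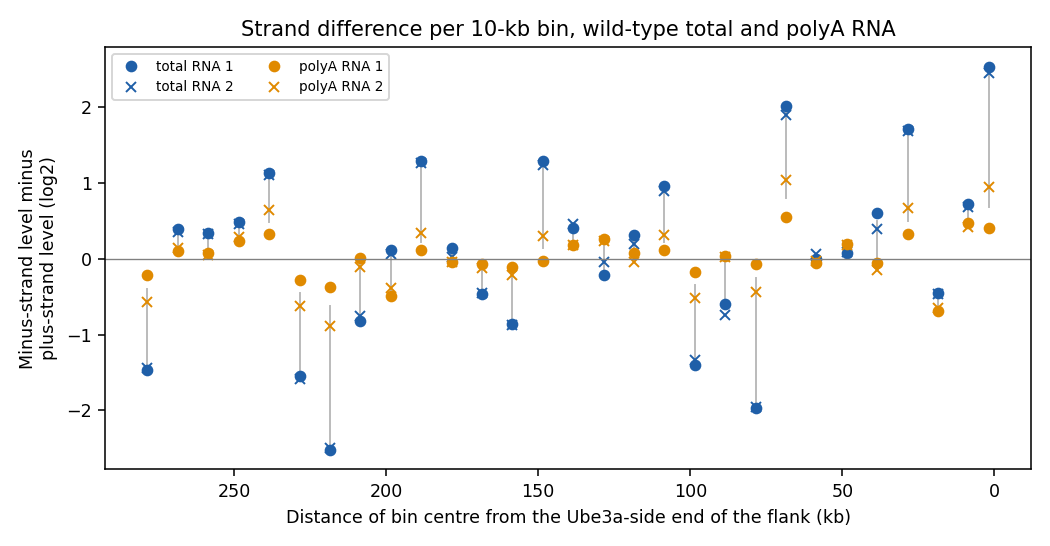
Minus-strand minus plus-strand level (y axis, log2) in each 10-kb bin of the flank against distance from its Ube3a-side end (x axis, kb), for the 2 wild types in total and in polyA RNA; a grey line joins the total and polyA means of a bin. The polyA points lie nearer to 0 than the total RNA points in most bins, for example 0.40 and 0.95 against 2.54 and 2.45 in the last bin.

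In bins with a clear strand difference, the brighter strand changed more than the fainter one. These are the 10 bins whose strands differed by over 1 on all 4 mutant arrays. Wild-type gaps were not used in this choice, but the wild types entered the filter of its probes. The mutant arrays hold total RNA, so the choice favours a larger gap there than in polyA RNA, and its part was not tested. In these bins the median gap between brighter and fainter strand was 1.65 and 1.62 in total RNA and 0.26 and 0.60 in polyA RNA of the wild types. The brighter strand was lower in polyA RNA in 10 of 10 bins, by a median change of -1.62 (range -2.70 to -1.16). The fainter strand was also lower in 10 of 10, by a median change of -0.25 (range -0.97 to -0.09). These directions are those of both kinds of probe together on the outside-locus scale. With catalogue probes alone on that scale, the brighter strand rose by 0.13 to 0.76 in several of these bins. Those bins start at 66100001, 66150001, 66160001, 66280001, 66300001, 66310001 and 66350001. The all-probe scale adds 1.34 to every change, which puts the median of the fainter strand above 0. The brighter strand then rises in some of the 10 bins and stays lower in others. On the other total RNA arrays the median gap was 1.55 in each single deletion, 1.59 in double-deletion replicate 1 and 1.39 in replicate 2.

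The direction of the flank's overall level in polyA RNA depended on the scale. With the outside-locus scale, plus-strand means were 2.41 and 2.39 in total and 1.99 and 1.86 in polyA RNA, and minus-strand means were 2.45 and 2.40 against 2.02 and 1.88, falls of 0.47 and 0.48 (SE 0.07, limma adjusted p = 3.08e-09 and 2.79e-09, with the variance pooled over all regions), beside 75% of all regions called. These means differ from those above because other probes pass the filter in these 4 samples. A probe could pass it through the total RNA arrays alone, where more probes were well above background. Without the filter the changes were -0.08 and -0.05 (limma adjusted p = 0.139 and 0.318), so the size of the falls depended on the filter. On the scale of the 75th percentile of all probes, which shifts the median probe by 1.34, the same means rose by 0.87 and 0.86, and quantile normalization gave rises of 0.17 and 0.18. The intensity behind the outside-locus scale was 46 and 47 on the polyA arrays, close to their background of 34, and 135 to 161 on the total RNA arrays. Catalogue probes alone gave 0.33 and 0.26 higher in polyA RNA, and custom probes alone gave -0.76 and -0.74. Of plus-strand catalogue probes, 37.3% and 32.3% were well above background on the polyA arrays, against 63.1% and 61.4% on the wild-type total RNA arrays.

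As a difference within each array, the flank stood less far above the outer flank in polyA RNA. On the plus strand the difference was 1.87 and 1.90 in total and 1.37 and 1.24 in polyA RNA (change -0.58, SE 0.05, adjusted p = 2.35e-04), and on the minus strand 1.69 and 1.69 against 1.18 and 1.05 (change -0.58, SE 0.05, adjusted p = 2.68e-04). Between neighbouring regions 80% of differences were called. The plus-strand change was -0.07 (adjusted p = 0.0723) with quantile normalization, -0.07 (0.0727) with the scanner-processed signal and -0.14 (0.0645) with the background-subtracted signal, and the minus-strand change was -0.18, -0.14 and -0.22 (adjusted p = 0.0143, 0.0215 and 0.0278). The plus-strand change was 0.11 and the minus-strand change 0.02 with catalogue probes alone, and 0.13 and 0.01 in the authors' matrix, so the size of this fall, and its direction, depended on the processing and the kind of probe.

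By bin, 31 of 58 were called lower and 4 higher in polyA RNA, a share of 60.3% beside 64% of all bins, which is near the background. With the 75th percentile of all probes the split was 5 lower and 48 higher, with the median of the outside probes 58 lower and 0 higher, with outside probes well above background 23 lower and 22 higher, and with quantile normalization 16 lower and 35 higher. Of the 10 falls named next, 8 were rises with catalogue probes alone (0.13 to 0.76), and the other 2 had no value there. On the outside-locus scale the bins with the largest falls were the last bin of the minus strand, from 7.41 and 7.31 to 4.73 and 4.58 (change -2.70), and 66160001 to 66170000 of the plus strand, from 5.89 and 5.81 to 3.72 and 3.66 (change -2.17). In the authors' matrix the change of this plus-strand bin was -0.15 (adjusted p = 0.0613). The minus-strand bins starting at 66230001, 66310001, 66350001 and 66140001 followed with changes of -2.08, -1.89, -1.29 and -1.21. On the plus strand those starting at 66300001, 66150001, 66280001 and 66100001 followed with -1.90, -1.38, -1.25 and -1.16. The 4 called higher were among the dim bins, starting at 66110001, 66120001 and 66260001 on the plus strand (0.23, 0.22 and 0.21) and at 66330001 on the minus strand (0.18), and all 4 were lower on the scale of the median outside probe. Among single probes, 4008 of 5703 tested were called (1891 higher, 2117 lower), 70.3% beside 73% of all probes.

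Across arrays the pattern of the flank was stable. Over the 7760 members, which share probe sequence and background, levels of the wild types correlated with Pearson's r = 0.997, the lowest value among the 6 total RNA arrays was 0.993, the polyA arrays correlated with 0.992, and polyA with total RNA arrays with 0.940 to 0.948. These are correlations across probes within arrays, and probes are not independent replicates.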

How the data were processed

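The deposited scanner files give linear red intensity per spot, and each holds a single array that was not normalized to the others. They come, per the file headers, from Agilent Feature Extraction 10.7.3.1 and a design on mm9; the submitters' processing notes name version 10.9. Per the labels, the median red signal is the value of a spot. The 8 arrays lie on 1 slide and share 1 scan, so no batch could be fitted.

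Intensities were background-corrected (normexp, offset 50) with limma 3.58.1 (R 4.3.3), log2-transformed and set relative to the 75th percentile of outside-locus probes. Control spots and outliers marked by the scanner software were left out. Means of tested probes per region, 10-kb bin (at least 3 tested probes) and strand were compared with lmFit and eBayes (two-sided, Benjamini-Hochberg, threshold 0.05), and the code was tested on simulated data. The 6 total RNA samples formed 4 groups with the double deletions as 1 group, and the 4 wild-type samples a separate fit. A lone sample, as in the single deletions or after leaving 1 out, is assumed to vary like the other groups. With the double deletions as separate groups, or 1 of them left out, the residual spread comes from the wild types alone.

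The polyA samples are paired with the wild types by the design text, which says that polyA RNA was purified from these samples; deviations of the same number correlated with r = 0.19 over all tested probes. Named bins are the 3 highest and 3 lowest per strand and, per comparison, up to 5 per strand and direction with the largest called change; named probes are the 5 highest per strand. Lists by gene name, cell type markers included, could not be applied, because the array carries no gene names. Members and lists were chosen with earlier results of these data known. The number of arrays limits the precision.

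The authors' series matrix holds red intensity multiplied by 1 factor per array (0.859 to 1.024 with total RNA, 1.97 and 1.98 with polyA RNA), as found from the values, and the basis of these factors is unknown. It has 2591 flank probes and 0 outside the locus. Column medians of the matrix, which has no centring, were 104 (maternal deletion), 75.4 (paternal deletion), 89 and 86.0 (wild type), 76.9 and 105.8 (double deletions) and 78.7 and 77.4 (polyA RNA). Alternatives covered scale, background correction, probe filter, summary, grouping, left-out samples and, chosen after seeing the data, the deposited matrix, background-subtracted signal, each kind of probe alone and probes without saturation.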

Additional observations from a re-analysis of the deposited data

How the results depend on the processing

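Values below are log2 changes or numbers of called flank features, for settings under which a result turned its sign, a main result crossed the threshold or a count moved by over 1.5 times. The cause was not tested. Of 40 sign changes in genotype comparisons, 0 are of a difference called in either setting. Of the 50 in polyA RNA, 41 are of changes called on the outside-locus scale and 25 were called in the opposite direction. Scaling on the 75th percentile of all probes gave mean changes of the flank of 1.27 and 1.27 (paternal deletion, plus and minus) and 0.87 and 0.86 (polyA RNA, plus and minus). Called bins were 58 (paternal deletion) and 53 (polyA RNA). Called probes were 27 (maternal deletion), 5736 (paternal deletion), 193 (double deletion) and 73 (double against maternal deletion). Changes of named bins in polyA RNA were 0.094 (66280001 plus), 0.18 (66100001 plus), 0.055 (66350001 minus) and 0.13 (66140001 minus). Scaling on outside probes well above background gave mean changes of the flank of -0.054 and -0.064 (double deletion, plus and minus) and -0.10 and -0.10 (polyA RNA, plus and minus). Scaling on the median outside probe gave called bins of 58 (polyA RNA). The changes of named bins in polyA RNA were then -0.58 (66110001 plus), -0.60 (66120001 plus), -0.60 (66260001 plus) and -0.63 (66330001 minus). Quantile normalization gave mean changes of the flank of 0.17 and 0.18 (polyA RNA, plus and minus). Flank minus outer flank differences were -0.069 (polyA RNA, plus). Flank strand differences were 0.0048 (paternal deletion) and 0.017 (polyA RNA). Called bins were 9 (paternal deletion) and 4 (double deletion). Called probes were 0 (double deletion). The scanner-processed signal gave mean changes of the flank of -0.013 and -0.0098 (paternal deletion, plus and minus) and 0.10 and 0.12 (polyA RNA, plus and minus). It gave flank minus outer flank differences of -0.069 (polyA RNA, plus). It gave flank strand differences of 0.0035 (paternal deletion) and 0.019 (polyA RNA). It gave called probes of 73 (maternal deletion) and 2018 (polyA RNA). Leaving out the filter gave mean changes of the flank of -0.0009 and -0.013 (double deletion, plus and minus) and -0.078 and -0.050 (polyA RNA, plus and minus). The next 100 kb minus flank differences were then -0.0014 (double deletion, plus). The flank strand differences were then 0.028 (polyA RNA). The called probes were then 6126 (polyA RNA). Keeping only probes well above background on all arrays gave flank strand differences of 0.024 (polyA RNA). Called probes were 0 (double deletion). Changes of named bins in polyA RNA were -0.16 (66110001 plus), -0.14 (66120001 plus), -0.098 (66260001 plus) and -0.012 (66330001 minus). Medians over probes gave mean changes of the flank of 0.011 and 0.045 (maternal deletion, plus and minus) and -0.013 and -0.0021 (paternal deletion, plus and minus). It gave flank strand differences of 0.010 (paternal deletion), 0.0089 (double deletion) and 0.15 (polyA RNA). Separate double-deletion groups gave next 100 kb minus flank differences of -0.093 (paternal deletion, minus) and -0.21 (double against maternal deletion, minus). The flank minus outer flank differences were then 0.094 (double deletion, plus). The called bins were then 8 (double deletion) and 6 (double against maternal deletion). The called strand differences were then 5 (double deletion). The called probes were then 92 (maternal deletion), 64 (paternal deletion), 740 (double deletion) and 478 (double against maternal deletion). A fit of all 8 samples gave next 100 kb minus flank differences of -0.21 (double against maternal deletion, minus). Called probes were 61 (maternal deletion), 23 (paternal deletion), 187 (double deletion) and 34 (double against maternal deletion). The background-subtracted signal gave mean changes of the flank of 0.15 and 0.18 (polyA RNA, plus and minus). It gave next 100 kb minus flank differences of -0.0093 (double deletion, plus). It gave flank minus outer flank differences of -0.0065 (double deletion, minus) and -0.14 (polyA RNA, plus). It gave flank strand differences of 0.0021 (paternal deletion) and 0.039 (polyA RNA). It gave called probes of 93 (maternal deletion) and 1868 (polyA RNA). The authors' matrix gave mean changes of the flank of -0.079 and -0.087 (paternal deletion, plus and minus) and -0.12 (polyA RNA, plus). The next 100 kb minus flank differences were then -0.36 (double against maternal deletion, minus). The flank minus outer flank differences were then -0.010 (double deletion, minus) and 0.13 and 0.011 (polyA RNA, plus and minus). The flank strand differences were then -0.097 (polyA RNA). The called bins were then 1 (maternal deletion). The called strand differences were then 11 (polyA RNA). The called probes were then 23 (maternal deletion) and 965 (polyA RNA). The changes of named bins in polyA RNA were then -0.12 (66120001 plus), -0.096 (66260001 plus), 0.30 (66300001 plus), 0.0013 (66100001 plus), -0.075 (66330001 minus), 0.35 (66310001 minus) and 0.0027 (66140001 minus). Catalogue probes alone gave mean changes of the flank of 0.015 and 0.014 (maternal deletion, plus and minus), -0.0066 and -0.017 (paternal deletion, plus and minus), -0.036 and -0.045 (double deletion, plus and minus), -0.051 and -0.059 (double against maternal deletion, plus and minus) and 0.33 and 0.26 (polyA RNA, plus and minus). Flank minus outer flank differences were -0.016 (double deletion, minus) and 0.11 and 0.024 (polyA RNA, plus and minus). Flank strand differences were -0.0008 (maternal deletion). Called bins were 1 (maternal deletion). Called strand differences were 14 (polyA RNA). Called probes were 1134 (polyA RNA). Changes of named bins in polyA RNA were 0.33 (66160001 plus), 0.72 (66300001 plus), 0.13 (66150001 plus), 0.35 (66280001 plus), 0.39 (66100001 plus), 0.76 (66310001 minus), 0.37 (66350001 minus) and 0.49 (66140001 minus). Custom probes alone gave next 100 kb minus flank differences of -0.0008 and -0.23 (double deletion, plus and minus). It gave flank strand differences of 0.0005 (paternal deletion) and 0.022 (polyA RNA). It gave called probes of 0 (double deletion). Named bins kept their direction in polyA RNA but lost their call in these cases. The change was -0.034 (66150001 plus) with all-probe scaling. The change was -0.033 (66140001 minus) with the scanner-processed signal. The change was 0.17 (66330001 minus) with polyA replicate 1 left out. The change was -0.095 (66140001 minus) with the background-subtracted signal. The changes were 0.030 (66110001 plus), -0.15 (66160001 plus) and -0.11 (66280001 plus) with the authors' matrix. The changes were 0.0078 (66110001 plus), 0.14 (66120001 plus), 0.13 (66260001 plus) and 0.026 (66330001 minus) with custom probes alone.

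With each replicate left out in turn, mean changes of the flank ran from -0.0032 to 0.034 (paternal deletion, minus), -0.027 to 0.067 (double deletion, minus) and -0.015 to 0.071 (double deletion, plus). Next 100 kb minus flank differences ran from -0.28 to -0.26 (double deletion, minus) and -0.22 to -0.21 (double against maternal deletion, minus). Flank minus outer flank differences ran from 0.040 to 0.15 (double deletion, plus) and -0.0003 to 0.058 (double deletion, minus). Flank strand differences ran from -0.012 to 0.0071 (paternal deletion), -0.020 to 3.4e-05 (double deletion) and -0.016 to 0.0035 (polyA RNA). Called bins ran from 0 to 11 (double deletion) and 0 to 11 (double against maternal deletion). Called strand differences ran from 0 to 7 (double deletion) and 0 to 1 (double against maternal deletion). Called probes ran from 0 to 93 (maternal deletion), 0 to 64 (paternal deletion), 0 to 768 (double deletion) and 0 to 546 (double against maternal deletion).

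With the wild-type number as a replicate block, which pairs each polyA sample with its total RNA, the flank means changed by -0.4745 and -0.4778 (plus and minus), 40 bins and 26 strand differences were called, and no result named in the text crossed the threshold. The planned setting that centres the authors' matrix on outside-locus probes was not run, because the matrix holds 0 of them. Of the main results set against their alternatives, 638 kept their direction and side of the threshold, 63 turned, 11 were weaker, 11 stronger and 49 counts moved. Signal over background limits the polyA comparison, since 56.6% and 61.4% of all probes were well above background there, against 81.1% to 88.4% with total RNA. With 1 or 2 samples per group, small genotype differences were not detectable, and large ones could go uncalled too. On the minus strand 200 to 300 kb past the flank, the paternal deletion had 0.51 against 4.38 and 4.25 in wild type and was not called.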
